A study of Homo sapiens with 6 samples.

Results

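The zinc finger genes around ZNF626 in band 19p12 of human chromosome 19 are a tandem family of 33 genes, from ZNF506 at the end nearer the short-arm tip to ZNF254 at the end nearer the centromere. They were selected on the position of ZNF626. That gene had been picked because its brighter probe set was higher in all 4 arrays of STEAP1-silenced cells than in the control of the same line. The values after silencing are therefore given as a description of ZNF626 and its neighbours, with no test of ZNF626. Of the 33 genes, 30 had a probe set that the platform annotates to a single symbol, out of 18417 genes measured in this way. ZNF98 and ZNF728 appeared only in probe sets shared with other members, and no probe set was listed for ZNF66.

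Total RNA of the established Ewing tumor lines A673 and SK-N-MC was hybridised to 6 Affymetrix Human Gene ST arrays. In each line, 1 array held cells given siRNA 2 against STEAP1, 1 held cells given siRNA 3 and 1 held cells given a non-silencing control siRNA. STEAP1 encodes a membrane protein of the metalloreductase family. The siRNAs were used at 5 nM for 48 h, the cells were harvested at 80% confluency, and 200 ng of total RNA was labelled. The A673 control carries the number 2 in its label and the SK-N-MC control carries none, and the labels do not say whether both lines were given the same control siRNA. They also do not say whether the arrays of a line came from separate cultures, so the array-to-array spread behind each p-value may be technical. Each condition had 1 array per line. Except where the siRNAs were compared, the main fits took siRNA 2 and siRNA 3 as replicates of silencing. The spread in those fits thus holds differences between the siRNAs. In fits across the lines, the spread also holds differences between the lines in response. A line had only 1 control array, which gives no spread for controls, and precision is limited by the small number of arrays.

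Most human genes of this kind encode a KRAB domain at the amino end and a row of C2H2 zinc fingers that reads DNA. The KRAB domain binds TRIM28 (KAP1), which brings the histone methyltransferase SETDB1 and HP1 proteins to the bound site and so represses it. Many of their known binding sites lie in transposable elements. ZNF91 is known for repressing SVA elements and ZNF93 for repressing LINE-1 elements of the L1PA class. The genes of 19p12 arose by repeated duplication, so their sequences resemble each other, and the share of signal from near copies in each probe set was not tested.

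The labels were checked on STEAP1 itself. STEAP1 was at 4.53 and 4.59 on the log2 intensity scale in the A673 arrays with siRNA 2 and siRNA 3, against 6.23 in the A673 control. SK-N-MC cells had 4.17 with siRNA 2 and 4.73 with siRNA 3, against 7.15 in their control. Over all arrays, 8 Ewing tumor markers other than STEAP1, among them CD99 and NKX2-2, lay between 3.78 and 10.3. The 8 measured markers of blood, epithelium and endothelium together with the fibroblast gene LUM lay between 1.01 and 2.26, and the fibroblast collagens COL1A1 and COL3A1 reached up to 4.90.

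The similarity of the family can be seen in the stretches around the transcription starts. RefSeq promoter windows of GRCh38.p14, from 250 bases before to 50 bases after the start, were found for 26 of the 33 members. Over the 325 pairs of windows, the median identity was 76.8% and the range 48.2% to 91.0%, the highest being between ZNF714 and ZNF431. To the window of ZNF626, identity was highest for ZNF486, at 87.1%, and lowest for ZNF429, at 54.9%. The windows of ZNF626, of its neighbours ZNF486 and ZNF737, and of ZNF93 and ZNF100, which differed between the lines as described further on, are printed 5′ to 3′ on the gene's strand. Capitals mark the letters CCAATCA, which hold the box bound by NF-Y, and the letters CTTCCGG, which hold the core read by ETS-family factors, on either strand. ZNF626 lies on the minus strand at chr19:20661522-20661821, ZNF486 on the plus strand at chr19:20166964-20167263, ZNF737 on the minus strand at chr19:20565732-20566031, ZNF93 on the plus strand at chr19:19900696-19900995 and ZNF100 on the minus strand at chr19:21767530-21767829.
ZNF626: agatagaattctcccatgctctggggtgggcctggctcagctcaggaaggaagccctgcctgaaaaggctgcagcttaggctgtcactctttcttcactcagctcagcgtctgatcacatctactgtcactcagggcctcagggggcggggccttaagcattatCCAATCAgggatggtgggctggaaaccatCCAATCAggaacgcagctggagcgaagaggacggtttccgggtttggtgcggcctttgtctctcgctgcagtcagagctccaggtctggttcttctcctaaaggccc
ZNF486: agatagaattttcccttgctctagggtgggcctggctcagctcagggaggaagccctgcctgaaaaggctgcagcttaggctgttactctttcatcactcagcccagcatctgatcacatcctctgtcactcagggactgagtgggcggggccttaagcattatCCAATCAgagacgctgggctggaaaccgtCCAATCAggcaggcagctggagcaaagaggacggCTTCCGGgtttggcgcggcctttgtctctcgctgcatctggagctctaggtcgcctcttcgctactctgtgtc
ZNF737: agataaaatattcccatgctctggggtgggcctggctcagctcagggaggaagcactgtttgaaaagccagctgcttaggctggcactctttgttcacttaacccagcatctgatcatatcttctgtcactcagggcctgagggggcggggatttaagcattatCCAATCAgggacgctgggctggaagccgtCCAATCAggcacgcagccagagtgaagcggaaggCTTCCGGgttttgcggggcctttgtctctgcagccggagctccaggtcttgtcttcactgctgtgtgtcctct
ZNF93: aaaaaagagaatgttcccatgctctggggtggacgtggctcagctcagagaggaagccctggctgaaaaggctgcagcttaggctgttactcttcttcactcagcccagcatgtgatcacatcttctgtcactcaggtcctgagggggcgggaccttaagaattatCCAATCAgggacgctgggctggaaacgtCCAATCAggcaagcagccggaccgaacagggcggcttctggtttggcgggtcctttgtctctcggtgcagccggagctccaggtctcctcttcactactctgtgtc
ZNF100: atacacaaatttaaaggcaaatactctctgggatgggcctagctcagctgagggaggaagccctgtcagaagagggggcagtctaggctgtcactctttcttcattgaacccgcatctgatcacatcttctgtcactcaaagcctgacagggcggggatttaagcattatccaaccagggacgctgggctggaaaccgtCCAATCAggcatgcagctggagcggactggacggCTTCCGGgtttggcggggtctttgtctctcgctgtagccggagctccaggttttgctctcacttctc

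The letters CCAATCA, or TGATTGG on the other strand, were in 26 of 26 member windows, with at least 2 copies in 16 of them. They were in 6.95% of all 35116 RefSeq promoter windows of the same length, in 1 of 31 windows of the zinc finger cluster at 19q13.41 and in 1 of 15 of that at 19q13.31. Members and clusters were counted with 1 window per gene, the first listed, while the 35116 windows were all entries, not reduced to 1 per gene. CTTCCGG, or CCGGAAG on the other strand, was in 20 of 26 member windows, in 19 of 31 at 19q13.41, in 5 of 15 at 19q13.31 and in 10.3% of all windows. The windows of ZNF626, ZNF93, ZNF682, ZNF90, ZNF714 and ZNF429 held no exact match to it. The GC-box letters GGGCGGGG, or CCCCGCCC on the other strand, were in 9 of 26 member windows, 21 of 31 at 19q13.41, 2 of 15 at 19q13.31 and 22.8% of all windows. The motifs were chosen after the sequences had been viewed, and the matches of the 3 motifs overlapped each other at 0 places in the 26 windows. A match of letters is a description of the window only.

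Most of the 30 genes gave low signals. The median of their mean log2 intensities was 1.79, against 3.26 over all genes. A mean under 2 was found for 16 members, a mean from 2 to 4 for 12, and a mean of at least 4 for ZNF738 and ZNF257. In 20 of 30 members the mean lay below the median of all probe sets, 2.65. No detection calls were used, so a low value has no stated floor, and the means of the 16 dimmest members lie below the highest value of the markers of blood, epithelium and endothelium.

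**Figure D1:**
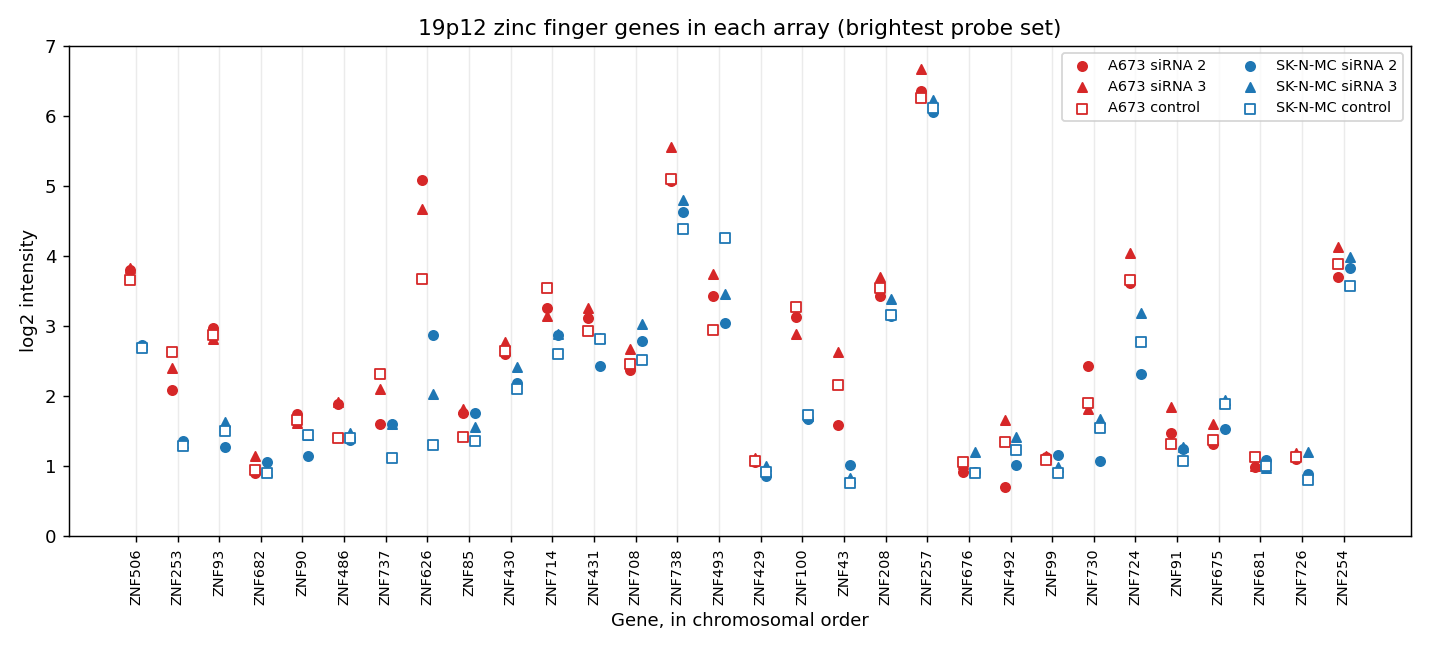
The log2 intensity of each of the 30 measured genes in each of the 6 arrays, brightest probe set, in chromosomal order, with A673 arrays in red left of SK-N-MC arrays in blue. ZNF257 lies above all other members and 16 genes have a mean under 2.

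ZNF257 was the brightest member, at 6.35, 6.67 and 6.26 in A673 with siRNA 2, siRNA 3 and control siRNA, and at 6.05, 6.22 and 6.11 in the same order in SK-N-MC. Its second probe set read 0.64 to 0.98 in A673 and 0.67 to 1.24 in SK-N-MC, so the lines overlapped there, with a difference of -0.06. ZNF738 followed, at 5.07, 5.56 and 5.10 in A673 and at 4.62, 4.80 and 4.38 in SK-N-MC. The A673 arrays were above the SK-N-MC arrays for ZNF738 and, by a small margin, on the brighter ZNF257 probe set. ZNF254 came next and its lines overlapped, with 3.69 to 4.13 in A673 and 3.57 to 3.99 in SK-N-MC. Intensities of different probe sets are set side by side only to show which signals are dim, since probe sets differ in brightness for the same amount of RNA.

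ZNF626, the gene at the centre of the group, was at 5.09 with siRNA 2 and 4.66 with siRNA 3 in A673, against 3.66 in the A673 control. In SK-N-MC it was at 2.87 with siRNA 2 and 2.02 with siRNA 3, against 1.30 in the SK-N-MC control. The siRNA arrays were above the control of their line in both lines, and siRNA 2 gave the higher value in both. The differences from control on the log2 scale were 1.43 and 1.00 in A673 and 1.57 and 0.73 in SK-N-MC, which average 1.18 (SE 0.23, limma, 4 siRNA and 2 control arrays). With a pseudocount of 16 added to the intensities the average was 0.45. The values per array chose the gene and are given with no test.

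The second ZNF626 probe set did not show this pattern. It read 1.80 and 2.12 with siRNA 2 and siRNA 3 in A673, against 1.88 in the control, and 1.69 and 1.53 in SK-N-MC, against 1.40 in the control. The A673 siRNA arrays lay on both sides of their control, and the SK-N-MC siRNA arrays were slightly above theirs. The mean difference was 0.15 on the log2 scale, against 1.18 for the brighter probe set. Both probe sets are annotated to ZNF626 with the same RefSeq transcripts, and which of them follows the transcript was not tested. By probe set number, the dimmer set lies between those of ZNF737 and ZNF708, where ZNF626 falls in chromosomal order. The brighter set lies between those of ZNF506 and ZNF682, away from that place. Whether it reads ZNF626 RNA was not tested. Values of ZNF626 elsewhere are those of the brighter set unless another is named.

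**Figure D2:**
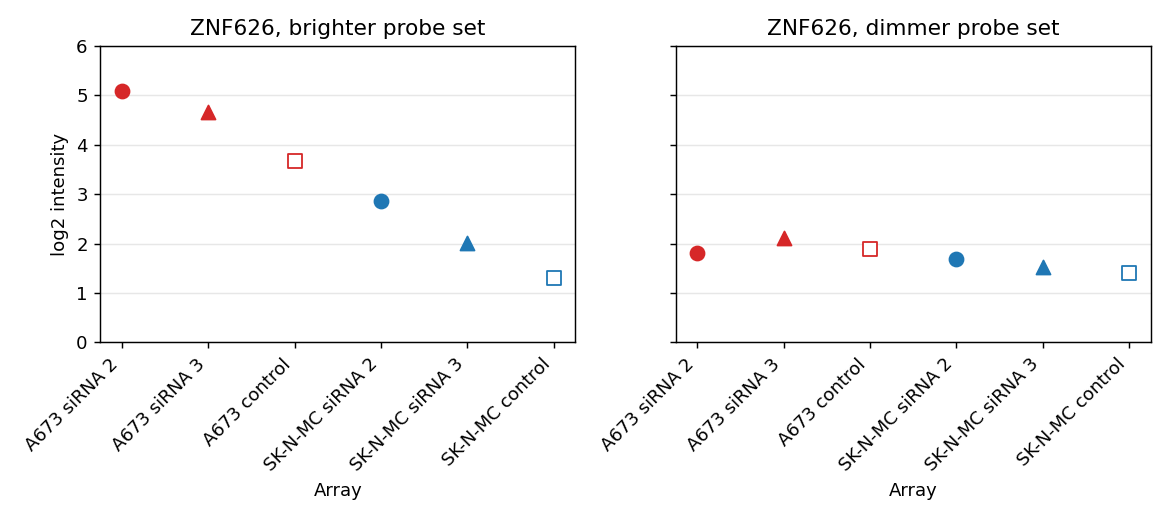
The log2 intensity of the 2 ZNF626 probe sets in each array, brighter probe set on the left and dimmer on the right, with A673 in red and SK-N-MC in blue. The brighter set is above the control in all 4 siRNA arrays, and the dimmer set stays between 1.40 and 2.12.

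The neighbours of ZNF626 were next set beside it after silencing. No member passed the threshold of an adjusted p under 0.05 in the limma fit across both lines. With ZNF626 left aside, ZNF85 alone had an unadjusted p under 0.05. Over all genes, 0% were called and 852 had an unadjusted p under 0.05. STEAP1 itself, with a difference of -2.18, had an adjusted p of 0.293 in this limma fit, the lowest of all genes. The fit thus did not call the silenced target either, and the lack of calls does not show that the members were unchanged. The median log2 difference of the 30 members was 0.06, against -0.005 over all genes, and 21 of 30 differences were positive. Leaving out SK-N-MC siRNA 3 gave the members a median of -0.005, leaving out A673 siRNA 3 gave 0.03 and leaving out A673 siRNA 2 gave 0.13. A value above the control in 4 of 4 siRNA arrays was found for 5 members, ZNF506, ZNF626, ZNF85, ZNF99 and ZNF91, against 10.6% of all genes. Since ZNF626 was chosen on this contrast, these counts are a description.

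After ZNF626 the largest difference across both lines was 0.33, that of ZNF85. ZNF737 was at 1.60 and 2.09 with siRNA 2 and siRNA 3 in A673, against 2.30 in the control, and at 1.60 in both SK-N-MC siRNA arrays, against 1.11 in the control. Its siRNA arrays were below the control in A673 and above it in SK-N-MC. ZNF486, whose promoter window is closest to that of ZNF626, was at 1.88 and 1.90 in the A673 siRNA arrays, against 1.39 in the control, and with siRNA in SK-N-MC at 1.36 and 1.47, against 1.39 in the control. Its SK-N-MC siRNA arrays lay on both sides of their control and its A673 siRNA arrays above theirs, with a mean difference of 0.26 over both lines.

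On the other side of ZNF626, ZNF85 was at 1.75 and 1.81 in the A673 siRNA arrays, against 1.41 in the control, and with siRNA in SK-N-MC at 1.75 and 1.55, against 1.35 in the control. The siRNA arrays were above the control in both lines, with a difference of 0.33 (SE 0.12). ZNF91, the SVA repressor, was at 1.47 and 1.83 in the A673 siRNA arrays, against 1.31 in the control, and with siRNA in SK-N-MC at 1.24 and 1.27, against 1.07 in the control. Its difference was 0.26, and neither gene passed the threshold. Both genes read within the range of the markers of blood, epithelium and endothelium in all 6 arrays.

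Some probe sets read several members at once. A probe set annotated to ZNF730, ZNF728, ZNF676, ZNF430, ZNF208, ZNF99, ZNF85 and ZNF43 together was at 9.90 and 9.93 with siRNA 2 and siRNA 3 in A673, against 9.76 in the control. In SK-N-MC it was at 9.47 and 9.79, against 9.41. It was above the control in 4 of 4 siRNA arrays, with a mean difference of 0.19 on the log2 scale, and no value of it can be assigned to a single gene. A second shared probe set, annotated to ZNF98, ZNF492 and ZNF85, read 0.99 to 1.25 in all 6 arrays.

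The members above the control were also counted in each siRNA array. In A673, 12 of 30 members were above the control with siRNA 2 (median difference -0.03) and 21 with siRNA 3 (median 0.18). In SK-N-MC, 17 were above the control with siRNA 2 (median 0.05) and 27 with siRNA 3 (median 0.13). Over all genes the share above the control was between 48.4% and 50.6% in each array. Within A673, 0 members passed the threshold in limma, where 0% of all genes were called. With ZNF626 left aside, an unadjusted p under 0.05 was found there for ZNF486 and ZNF493, and for 617 of 18417 genes. Within SK-N-MC, 0 members passed in limma, where 0.00543% of all genes were called. Again leaving ZNF626 aside, an unadjusted p under 0.05 was found there for ZNF493, and for 943 of 18417 genes. ZNF626 was chosen on its silencing values, so its p is not counted. By that choice it is among the members above the control in each array.

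The siRNAs were then set against each other. The difference itself uses no control array, while the control arrays are part of the fit and enter its SE and p. No member passed the threshold in limma, and 0% of all genes were called. An unadjusted p under 0.05 was found for 5 of 30 members and 1229 of 18417 genes. The median of siRNA 2 minus siRNA 3 was -0.20 over the members, against -0.006 over all genes, and 23 of 30 differences were negative. The value was lower with siRNA 2 than with siRNA 3 in both lines in 17 members, a pattern shown by 26.3% of all genes, by 11 of 35 measured genes at 19q13.41 and by 8 of 16 at 19q13.31. ZNF626 was the sole member higher with siRNA 2 in both lines, by 0.43 in A673 and 0.85 in SK-N-MC (fit 0.64, SE 0.15, adjusted p = 0.572), where 24.6% of all genes showed that order.

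The members that differed most between the siRNAs were ZNF492 and ZNF724. ZNF492 was at 0.70 with siRNA 2 and 1.65 with siRNA 3 in A673, and at 1.01 and 1.42 in SK-N-MC. ZNF724 was at 3.62 with siRNA 2 and 4.04 with siRNA 3 in A673, and at 2.32 and 3.19 in SK-N-MC. Both had lower values with siRNA 2 in both lines, and the limma fit gave differences of -0.68 for ZNF492 (SE 0.17, adjusted p = 0.573) and -0.65 for ZNF724 (SE 0.16, adjusted p = 0.572). ZNF675, whose protein is known to bind TRAF6, had a difference of -0.35, and ZNF738 one of -0.33. None of these values passed the threshold.

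**Figure D3:**
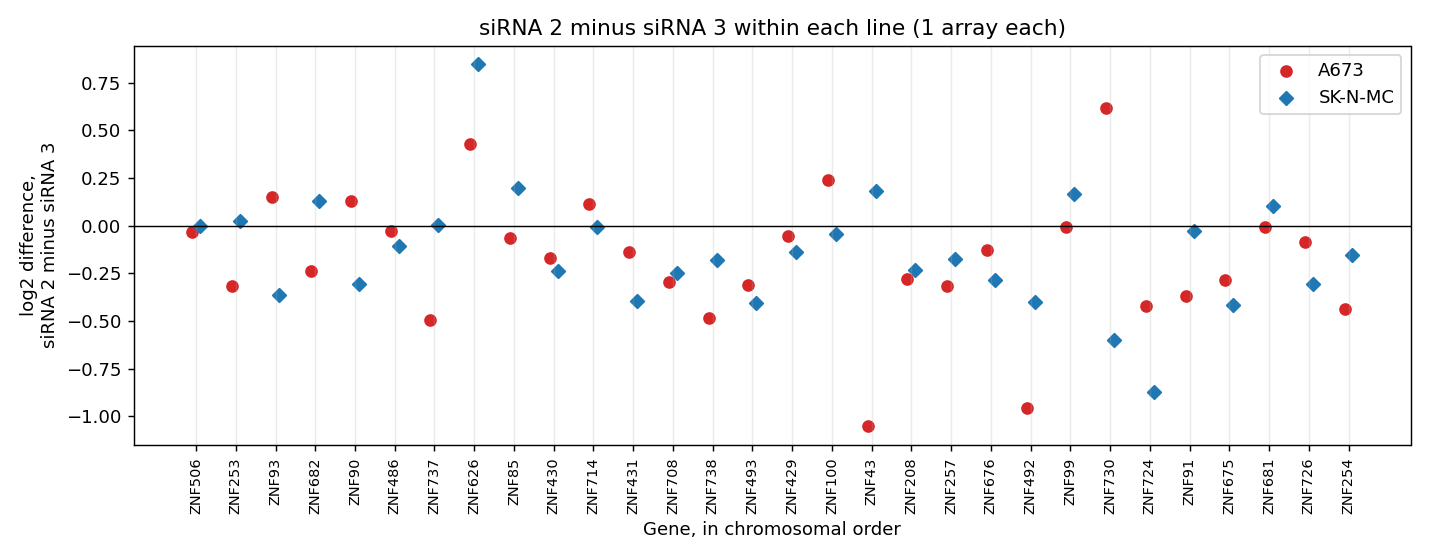
The log2 difference siRNA 2 minus siRNA 3 for each of the 30 measured genes, in chromosomal order, with 1 point for A673 and 1 for SK-N-MC. In 17 genes both points lie below 0, and ZNF626 alone has both above 0.

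The cell lines were compared next, a contrast that the choice of members did not use, as silencing is balanced between the lines. A673 exceeded SK-N-MC in 10 of 30 members at an adjusted p under 0.05 in limma, and no member was lower in A673 at that threshold. Over all genes 24.8% were called, 13.5% higher and 11.4% lower in A673. All 3 A673 arrays lay above all 3 SK-N-MC arrays in 18 members and below them in 0, against 19.4% and 18.5% of all genes. For ZNF737, counted among the 18, the lines met at 1.60 to 2 decimals. ZNF737, ZNF253, ZNF90, ZNF429, ZNF43, ZNF730 and ZNF91, all among the 18, had a mean log2 under 2. ZNF429, for example, read 1.05 to 1.11 in A673 and 0.86 to 1.00 in SK-N-MC. The median log2 difference was 0.33 over the members and -0.02 over all genes, with 26 of 30 positive. An unadjusted p under 0.05 was found for 19 of 30 members and 6275 of 18417 genes.

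The largest of these differences was that of the brighter ZNF626 probe set, whose A673 and SK-N-MC values are given above. It averaged 4.47 in A673 and 2.06 in SK-N-MC over the 3 arrays of each line, which are not replicates of a condition. Their SDs, 0.73 and 0.79, hold the difference between siRNA and control arrays. The line difference was 2.41 (SE 0.22, limma adjusted p = 0.000113). The A673 control, 3.66, was above all 3 SK-N-MC arrays. The SK-N-MC values of 2.02 and 1.30 lie within the range of the markers of other cell types, so no linear fold is given, and with a pseudocount of 16 the difference was 0.93. The dimmer probe set differed by 0.39 (adjusted p = 0.0535).

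ZNF93, the LINE-1 repressor, was at 2.97, 2.82 and 2.87 in A673 with siRNA 2, siRNA 3 and control siRNA, and at 1.26, 1.63 and 1.49 in SK-N-MC. ZNF100 was at 3.12, 2.88 and 3.27 in A673 and at 1.67, 1.71 and 1.72 in SK-N-MC. Neither gene's lines overlapped, with A673 higher by 1.42 for ZNF93 (SE 0.13, adjusted p = 0.000113) and by 1.39 for ZNF100 (SE 0.12, adjusted p = 8.28e-05). The SK-N-MC values of both genes lie within the range of those markers, and with a pseudocount of 16 the differences were 0.32 for ZNF93 and 0.35 for ZNF100, both still past the threshold. ZNF506, at the outer end of the cluster, was at 3.79, 3.82 and 3.65 in A673 and at 2.73, 2.73 and 2.69 in SK-N-MC. The tight values of ZNF506 within each line gave a difference of 1.04 (SE 0.10, adjusted p = 0.000172).

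ZNF253, beside ZNF506, was at 2.08, 2.40 and 2.63 in A673 and at 1.35, 1.32 and 1.28 in SK-N-MC, a difference of 1.05 (adjusted p = 0.000872). ZNF43 was at 1.58, 2.63 and 2.16 in A673 and at 1.01, 0.82 and 0.76 in SK-N-MC, a difference of 1.26 (SE 0.24, adjusted p = 0.00556). For ZNF43 the A673 arrays were spread over a range wider than that of the SK-N-MC arrays, and still did not overlap them. ZNF724 was higher in A673 by 1.01 (adjusted p = 0.0107). With a floor at intensity 4 none of these 3 genes passed (adjusted p = 0.227 for ZNF253, 0.561 for ZNF43 and 0.148 for ZNF724). With a pseudocount of 16 ZNF253 passed, while ZNF43 (adjusted p = 0.111) and ZNF724 (adjusted p = 0.0595) did not.

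The remaining calls were smaller. They were ZNF738, higher in A673 by 0.64 (adjusted p = 0.0128), ZNF714, by 0.53 (adjusted p = 0.0279), and ZNF430, by 0.44 (adjusted p = 0.0283). Without the SK-N-MC control or without the A673 control these 3 genes no longer passed the threshold, which left 7 calls. A floor at intensity 4 left 4 calls, those of ZNF626, ZNF93, ZNF100 and ZNF506, and a pseudocount of 16 left these and ZNF253.

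A few members ran the other way without passing the threshold. ZNF675 was at 1.31, 1.59 and 1.36 in A673 with siRNA 2, siRNA 3 and control siRNA, and at 1.52, 1.94 and 1.88 in SK-N-MC, a difference of -0.36 (adjusted p = 0.127). ZNF708 had a difference of -0.28 (adjusted p = 0.205). ZNF493 was at 3.43, 3.74 and 2.93 in A673 and at 3.04, 3.45 and 4.25 in SK-N-MC, so its line values overlapped and its highest array was the SK-N-MC control. The difference between lines for this probe set of ZNF493 was -0.22. Its second probe set read 1.47 to 1.75 in A673 and 1.75 to 2.16 in SK-N-MC, with all A673 arrays below all SK-N-MC arrays by a thin margin and a difference of -0.32.

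**Figure D4:**
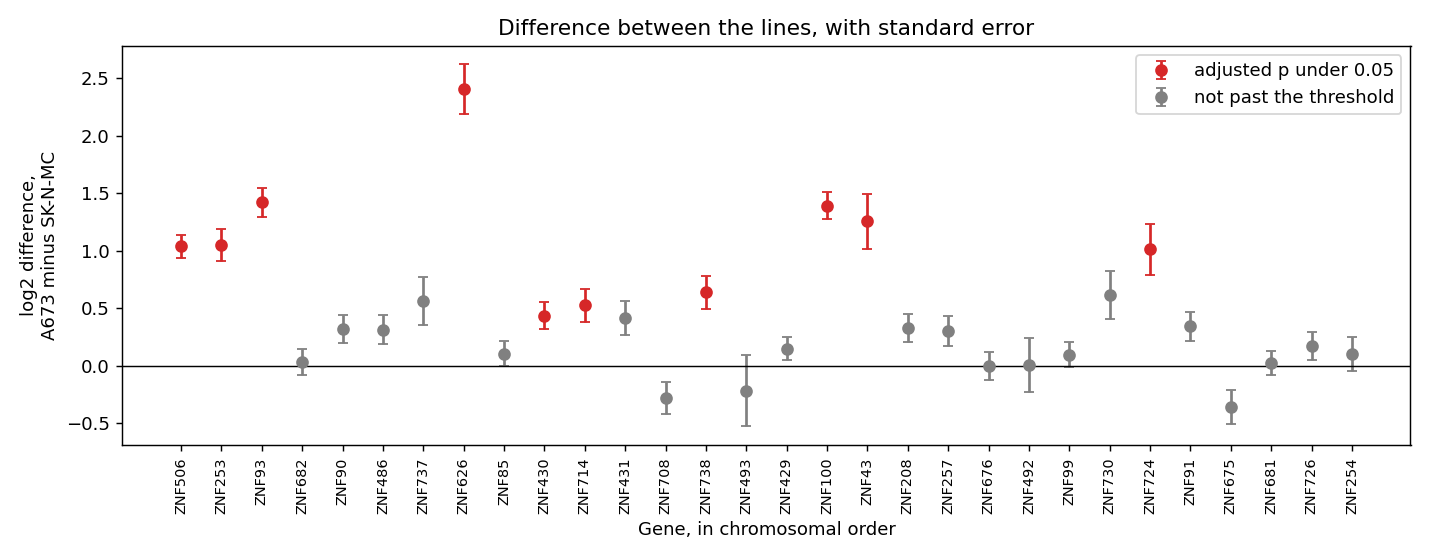
The log2 difference A673 minus SK-N-MC of each of the 30 measured genes in chromosomal order, with standard errors from the limma fit over 6 arrays. The 10 genes past the threshold are in red and all lie above 0, with ZNF626 the highest at 2.41.

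Other zinc finger clusters of chromosome 19 were counted in the same way. At 19q13.41, 35 of 37 genes were measured, 4 were called higher and 8 lower in A673, and the median difference was 0.02. There 18 of 35 differences were positive, and the A673 arrays lay all above in 8 genes and all below in 9. At 19q13.31, 16 of 19 genes were measured, 3 were called higher and 0 lower, and the median was 0.21. In this cluster 14 of 16 differences were positive, and the A673 arrays lay all above in 8 genes and all below in 0. A lean toward higher values in A673 was thus seen at 19q13.31 as well as at 19p12. The calls were 11.4% higher and 22.9% lower of the genes at 19q13.41, and 18.8% higher at 19q13.31. Over all genes, 13.5% were called higher and 11.4% lower. The A673 arrays lay all above in 19.4% of all genes and all below in 18.5%. No test was made of the difference between clusters. Within 19p12 the called genes ran in chromosomal order ZNF506, ZNF253, ZNF93, ZNF626, ZNF430, ZNF714, ZNF738, ZNF100, ZNF43 and ZNF724. Uncalled genes such as ZNF682, ZNF90 and ZNF429 lay between them, and the genes nearest the centromere, ZNF91, ZNF675, ZNF681, ZNF726 and ZNF254, were all uncalled.

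ZNF208 had 3 probe sets, which show how far signals of a single gene can part. Its brightest set read 3.42, 3.70 and 3.54 in A673 with siRNA 2, siRNA 3 and control siRNA, and 3.14, 3.38 and 3.16 in SK-N-MC. The second set read 2.38 to 2.94 and the third 0.84 to 1.27. The 2 brighter sets kept a gap of 0.73 to 0.78 in all 6 arrays, so they moved together, while the dimmest did not follow them.

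The proteins through which KRAB zinc finger proteins repress were examined beside them. All 23 listed corepressor genes were measured, and 0 passed the threshold after silencing in limma, where STEAP1 itself did not pass across both lines. Their log2 differences ran from -0.21 for CHD3, a nucleosome remodeller, to 0.21 for the histone methyltransferase SUV39H1. TRIM28 differed by -0.31 between the lines (adjusted p = 0.0661) and SETDB1 by -0.13 (adjusted p = 0.528), so the central pair passed no threshold.

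Between the lines, 4 corepressor genes were called higher and 5 lower in A673. These are 17.4% and 21.7% of the list, against 13.5% and 11.4% of all genes. The largest higher calls were CHD3, by 1.098 (SE 0.14, adjusted p = 6.11e-04), MORC2, which acts with the HUSH silencing complex, by 1.02 (SE 0.20, adjusted p = 0.00640), and SUV39H2, by 1.00 (SE 0.18, adjusted p = 0.00360). The largest lower calls were TASOR, a HUSH subunit, with a difference of -0.999 (SE 0.13, adjusted p = 6.54e-04), the remodeller SMARCAD1, with -0.88 (adjusted p = 0.00572), and ZNF274, itself a KRAB zinc finger protein, with -0.84 (adjusted p = 0.00336). The list thus held calls in both directions, where the calls among the 19p12 genes, like those at 19q13.31, were all higher in A673. The corepressor genes were also brighter, with a median mean log2 of 5.62 against 1.79 for the 19p12 members.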

How the data were processed

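RNA of 6 arrays was analysed. The authors deposited linear-scale intensities, for which the submitters' processing notes name RMA and Affymetrix Expression Console 1.1. The log2 of each intensity was taken here, with no further normalization. Probe sets were named through the platform annotation, with 19460 of 33297 carrying 1 symbol, updated through RefSeq GRCh38.p14. Per gene, the probe set with the highest mean log2 over the 6 arrays was used, which gave 18417 genes.

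Fits used limma 3.58.1 in R 4.3.3 (two-sided, Benjamini-Hochberg adjusted p under 0.05 over all genes). Silencing and line differences came from a fit with both terms (3 residual degrees of freedom). Within-line and siRNA contrasts came from fits with 2 residual degrees of freedom. The fits were tested on simulated data with the same spread for every gene. Changes were planted only in genes averaging log2 4 or more, so the test does not cover the dim genes that make up most members. Every measured member could be named, and of the corepressors the 3 largest differences in each direction, beside TRIM28 and SETDB1. The members and lists were chosen with earlier results of these data known. Alternatives covered normalization, low-value filters, pseudocount, probe set choice, the siRNA block and leaving out each array.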

Additional observations from a re-analysis of the deposited data

Results flagged for a closer look

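In 5 members every siRNA array moved away from its control one way in A673 and the other way in SK-N-MC, a pattern shown by 20.1% of all genes. The difference of the responses, A673 minus SK-N-MC on the log2 scale, was tested directly in limma, and the adjusted p was 1.00 for each of the 5. No member passed that test and 3 of 30 had an unadjusted p under 0.05, where 711 of all genes did.

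ZNF493 was above its control by 0.49 and 0.80 with siRNA 2 and siRNA 3 in A673 and differed by -1.21 and -0.80 in SK-N-MC, so the difference of the responses was 1.66 (SE 0.33). These are values of its brighter probe set. The second set did not show opposite responses, with -0.09 and 0.18 in A673 and 0.08 and 0.40 in SK-N-MC. ZNF737 differed from its control by -0.70 and -0.21 in A673 and by 0.49 and 0.48 in SK-N-MC, with a difference of the responses of -0.94 (SE 0.32). For ZNF714 the difference of the responses was -0.61 (SE 0.23), for ZNF253 it was -0.45 (SE 0.27) and for ZNF676 it was -0.23 (SE 0.27). Each of these values rests on 1 control array per line.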

How the results depend on the processing

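Of 16 alternatives, 15 were planned and 1, the dimmest probe set of each gene, was added after seeing the data. Between the lines 10 members were called, against 1 when only the 2 members averaging log2 4 or more were kept, 4 with a floor at intensity 4 and 5 with a pseudocount of 16. Leaving out 1 array at a time gave 7 to 10 calls. ZNF506, ZNF93 and ZNF100 stayed called in 15 of 15 alternatives that tested them, and ZNF626 in 14 of 15, with an adjusted p of 0.0535 on its dimmest probe set. ZNF430 stayed called in 9 of 15, ZNF714 in 10 of 15 and ZNF738 in 11 of 16, ZNF43 and ZNF724 in 13 of 15 and ZNF253 in 14 of 15. These alternatives are not all separate checks. Except for ZNF626, each called gene had 1 probe set, so the alternatives on probe set choice reused the same values. Leaving out the control of either line gave the same line difference, so those alternatives repeat each other.

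The ZNF626 silencing difference, 1.18, was 0.45 with a pseudocount of 16, 0.66 as the mean over its probe sets, 0.15 on the dimmest probe set and 1.00 to 1.37 without 1 array. The members' median silencing difference, 0.06, was 0.21 over those 2 bright members and -0.005 without SK-N-MC siRNA 3. With the siRNA number as a replicate block, 10 members were called between the lines and the ZNF626 difference was 1.18. Deviations of same-numbered siRNA arrays correlated at 0.0663 across all genes, and the labels give the numbers as those of the siRNAs. Whether they also mark a shared day or batch was not tested. In the other comparisons 0 members were called in limma under every alternative run. Low signal limits most members, and the cause of each shift was not tested.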
